A study of Mus musculus with 5 samples.

Results

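The longest genes of the mouse genome offer gene bodies in which almost every measured CpG lies far from a promoter. They were taken as the protein-coding genes of GENCODE M21 on the autosomes of GRCm38 that span at least 300 kb, and 541 of 20807 annotated genes met this rule. The longest spanned 4435 kb and the median length was 451 kb. Each body was cut into 5-kb regions, and the 59766 regions in which no library had under 20 calls were kept of 61184, which was 97.7%. All 541 genes kept at least 46 regions. Whole-genome bisulfite sequencing had been performed on leukemic blasts of mice whose blood cells carry Cebpa-/p30, a deletion of one Cebpa allele opposite an allele that makes only the short p30 isoform. Tet2 was intact in 2 mice (Tet2+/+, numbers 23 and 24) and deleted in 3 (Tet2-/-, numbers 5, 7 and 8). Both genes were deleted by Mx1-Cre after poly(I:C) injection, with donor marrow on the C57BL/6 background grafted into irradiated C57BL/6J.SJL recipients, and blasts were sorted as live CD45.2+ cells without CD3, B220 or Ter119. Floxed alleles recombine in every Mx1-Cre-responsive cell, residual non-leukemic donor myeloid cells pass the same gate, and the age of the mice was not given in the labels. The paper collected marrow when mice were moribund, and reports a shorter median survival with Tet2-deficient than with Tet2+/+ grafts. Time since deletion may thus differ between the genotypes, and its part cannot be told apart from that of Tet2.

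DNA methyltransferases place methyl groups on the cytosines of CpG dinucleotides, and TET2 oxidizes them as a step towards their removal. Bisulfite sequencing reads 5-methylcytosine and 5-hydroxymethylcytosine alike, so that a methylation level is the sum of both. In mammalian cells, CpG-rich start sites are usually unmethylated and the bodies of transcribed genes are usually highly methylated, while long CpG-poor domains that are late to replicate and hold few active genes lose methylation over cell divisions. Very long genes are mostly intron, and many encode adhesion molecules, receptors and channels of neurons, which blood cells do not use.

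Sequence windows show what such regions look like and where the values below come from. Each window is the 300 bases of its region with the most CpG dyads, read from GRCm38 on the + strand, with CG in capitals. Methylated calls over all calls are given in the order Tet2+/+ 23 and 24 and Tet2-/- 5, 7 and 8.
Ttc28 body: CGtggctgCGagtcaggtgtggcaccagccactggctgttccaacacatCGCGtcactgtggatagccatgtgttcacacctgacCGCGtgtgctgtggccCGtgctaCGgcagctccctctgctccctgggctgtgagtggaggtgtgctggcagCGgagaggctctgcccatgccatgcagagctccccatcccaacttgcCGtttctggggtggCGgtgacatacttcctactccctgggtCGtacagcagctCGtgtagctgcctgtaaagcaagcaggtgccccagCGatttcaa
This window at chr5:111274633-111274932 lies in an intron of Ttc28, which encodes a tetratricopeptide repeat protein. It held 14 dyads, with 10 of 73, 17 of 81, 45 of 96, 75 of 109 and 21 of 35 calls methylated, and is shown because it belongs to the strongest region of the body with the largest difference of all very long genes. The 300 bases around the start site of the same gene (not printed) held 57 dyads, of which 0.694% to 2% of the calls were methylated.
Msra intron: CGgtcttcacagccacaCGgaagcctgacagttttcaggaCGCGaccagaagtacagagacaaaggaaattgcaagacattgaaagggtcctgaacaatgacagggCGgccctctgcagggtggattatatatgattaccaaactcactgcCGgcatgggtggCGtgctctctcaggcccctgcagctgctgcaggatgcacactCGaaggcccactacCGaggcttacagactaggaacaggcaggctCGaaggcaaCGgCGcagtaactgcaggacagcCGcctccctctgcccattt
Lrba with Mab21l2: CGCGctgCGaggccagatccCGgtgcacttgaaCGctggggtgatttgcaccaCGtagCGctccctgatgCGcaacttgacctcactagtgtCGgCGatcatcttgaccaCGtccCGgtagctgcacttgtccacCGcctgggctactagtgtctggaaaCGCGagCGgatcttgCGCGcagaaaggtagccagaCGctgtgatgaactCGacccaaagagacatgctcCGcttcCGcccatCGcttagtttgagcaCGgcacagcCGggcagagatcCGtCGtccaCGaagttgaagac
Dip2c exon and intron: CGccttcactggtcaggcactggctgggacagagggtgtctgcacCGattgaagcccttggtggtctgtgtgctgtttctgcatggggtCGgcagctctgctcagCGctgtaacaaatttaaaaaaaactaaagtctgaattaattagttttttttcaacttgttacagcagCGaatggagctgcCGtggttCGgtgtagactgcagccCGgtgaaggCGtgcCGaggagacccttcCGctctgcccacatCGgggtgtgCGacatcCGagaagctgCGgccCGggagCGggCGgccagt
The Msra and Lrba windows (chr14:64256899-64257198 and chr3:86547140-86547439) come from 2 of the 3 regions with the largest gain of methylation in Tet2-/- blasts, and the Dip2c window (chr13:9494665-9494964) from the region with the largest loss. The Msra window had 5 of 79, 3 of 87, 77 of 93, 57 of 60 and 54 of 58 calls methylated. The Lrba window, which lies in the coding exon of the nested gene Mab21l2, had 28 dyads and 46 of 203, 4 of 242, 81 of 301, 215 of 229 and 78 of 90 calls methylated. In the Dip2c window, which runs from an intron into a coding exon, 35 of 52, 26 of 27, 8 of 135, 8 of 125 and 1 of 32 calls were methylated.

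Each library held 2.999 to 5.27 calls per autosomal dyad, and a median of 94 to 161 calls per region of a very long gene. Summed over a body the calls ranged from 2586 to 492288. Deletion of Tet2 was visible in the 1-kb bin at chr3:133467001-133468000 inside the gene, where Tet2+/+ 23 and 24 had 24 and 35 calls and each Tet2-/- library had 0. Promoters of 8 myeloid marker genes had a median level of 19.1% and those of 6 lymphoid markers 69.6%, although the myeloid Csf1r reached 72.3% and the lymphoid Cd79b only 26.4%. The 4 erythroid promoters had a median of 24.6%, near that of the myeloid ones. In DNA of sorted bulk cells a level averages over cells and alleles, so that a shift in the mix of cells and a change within cells cannot be told apart. Tet2+/+ 24 was the lowest library in 495 of the 541 bodies and Tet2-/- 7 the highest in 529. The same libraries were lowest and highest over all autosomal regions pooled, with 62.3% in Tet2+/+ 24 and 74.8% in Tet2-/- 7.

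Bodies of very long genes were less methylated than those of genes of 20 to 100 kb in every library. The pooled level of the long genes (methylated calls over all calls) was 71.2% and 65.7% in Tet2+/+ 23 and 24 and 75.03%, 79.5% and 71.3% in Tet2-/- 5, 7 and 8. In what follows, values that are given without names stand in this order, Tet2+/+ 23 and 24 against Tet2-/- 5, 7 and 8. Genes of 20 to 100 kb, measured in 55514 regions, had 73.9% and 69.8% in Tet2+/+ 23 and 24 and 77.5%, 82.02% and 76.6% in Tet2-/- 5, 7 and 8. The gap between both classes was -2.67 and -4.004 points in Tet2+/+ 23 and 24 and -2.46, -2.50 and -5.24 points in Tet2-/- 5, 7 and 8, on average -3.37 points. It had the same sign in 5 of 5 libraries (exact sign-flip permutation test, two-sided, p = 0.062, the smallest that 5 libraries allow). As a mean over regions, each with the same weight, the gap was -6.82 points, and without exon regions -2.09.

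Both classes had a higher mean in Tet2-/- blasts, by similar amounts, and a change of the gap was not detectable. Long bodies had 68.5% ± 3.89 (SD, n = 2) and 75.3% ± 4.10 (SD, n = 3) in Tet2+/+ and Tet2-/- blasts, a difference of 6.80 points (exact permutation test over libraries, two-sided, p = 0.2). Tet2-/- 8 lay at the level of Tet2+/+ 23, 71.3% beside 71.2%, and above Tet2+/+ 24. In genes of 20 to 100 kb the difference was 6.86 points with 71.8% ± 2.95 (SD, n = 2) and 78.7% ± 2.92 (SD, n = 3) (exact permutation p = 0.1), and Tet2-/- 8 at 76.6% was clear of Tet2+/+ 23 at 73.9%. Without Tet2+/+ 24 the difference in long bodies was 4.05 points. With 2 against 3 mice this test cannot give less than 0.1. The change of the gap was -0.057 points (exact permutation p = 1), smaller than the spread of the gap among the Tet2-/- libraries of ± 1.59 (SD, n = 3).

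Among the very long genes, longer classes had lower levels. The median body level over the 5 libraries was 78.1% for 7254 genes of 20 to 100 kb, 75.7% for 411 genes of 200 to 300 kb, 72.8% for 323 genes of 300 to 500 kb, 70.2% for 163 genes up to 1 Mb and 66.1% for 55 genes of at least 1 Mb. The median difference between the genotypes was 6.45, 6.40 and 6.71 points in the last 3 classes, beside 5.90 points over all 14879 bodies tested. Bodies with a mean level of at least 80% made up 17.2% of the very long genes and 43.8% of the genes of 20 to 100 kb. Bodies under 70% made up 40.7% and 25.3%. Across the 541 genes the mean level had a Spearman correlation of -0.257 with length and 0.476 with CpG dyads per region. These describe genes that share libraries and depth.

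**Figure D1:**
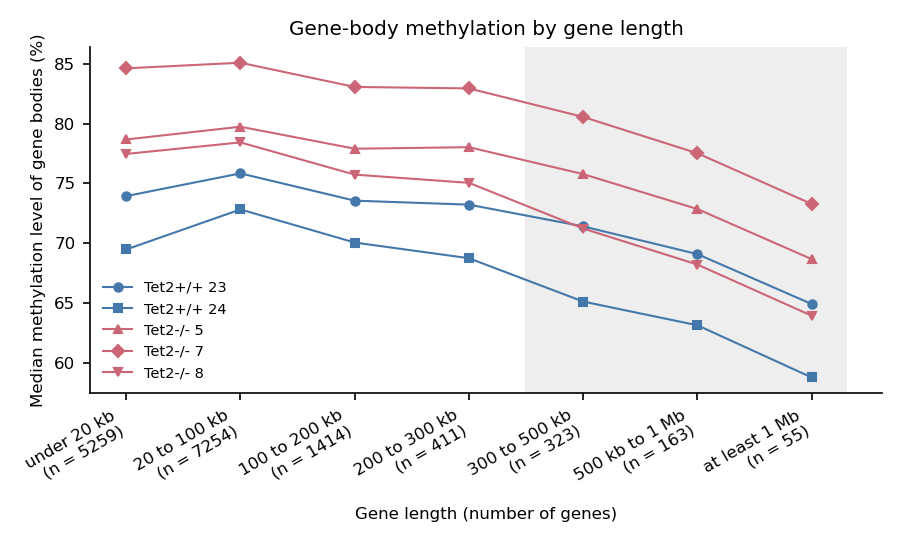
Median methylation level (%, y axis) of gene bodies in 7 classes of gene length (x axis, number of genes in brackets). Each line is a library, blue for Tet2+/+ and red for Tet2-/-, and the shaded classes are the genes of at least 300 kb. All 5 lines fall within the shaded classes, and Tet2-/- 8, which lies above Tet2+/+ 23 up to 300 kb, lies at or below it there.

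The deficit of long genes was largest in regions with fewer than 30 CpG dyads and near 0 at 70 to 99 dyads. Regions of very long genes held 37.95 CpG dyads on average and those of genes of 20 to 100 kb 51.4. Among regions with fewer than 20 dyads, the long genes had 63.6% and 56.6% in Tet2+/+ 23 and 24 and 66.3%, 71.7% and 61.8% in Tet2-/- 5, 7 and 8, and the genes of 20 to 100 kb had 73.9% and 69.2% in Tet2+/+ 23 and 24 and 76.02%, 81.2% and 73.6% in Tet2-/- 5, 7 and 8. The gap in this class was -10.4 and -12.6 points in Tet2+/+ 23 and 24 and -9.74, -9.56 and -11.8 points in Tet2-/- 5, 7 and 8. At 20 to 29 dyads it was -9.97 and -12.6 points in Tet2+/+ 23 and 24 and -9.63, -9.53 and -12.4 points in Tet2-/- 5, 7 and 8. At 30 to 39 dyads it was still -7.14 and -9.23 points in Tet2+/+ 23 and 24 and -6.65, -6.82 and -9.71 points in Tet2-/- 5, 7 and 8. At 40 to 49 dyads it was -4.14 and -5.85 points in Tet2+/+ 23 and 24 and -3.68, -4.15 and -6.37 points in Tet2-/- 5, 7 and 8, and at 50 to 69 dyads it was -1.85 and -2.79 points in Tet2+/+ 23 and 24 and -1.38, -2.14 and -3.83 points in Tet2-/- 5, 7 and 8. At 70 to 99 dyads it was near 0, with 0.0897 and -0.236 points in Tet2+/+ 23 and 24 and 0.244, -0.419 and -1.63 points in Tet2-/- 5, 7 and 8 and its sign differed between libraries. At 100 dyads and more it was -0.774 and 0.354 points in Tet2+/+ 23 and 24 and -0.839, -2.84 and -2.30 points in Tet2-/- 5, 7 and 8. For a weighted gap, each density class was weighted by its share of the regions of both length classes together. This gap was -5.49 and -7.15 points in Tet2+/+ 23 and 24 and -5.08, -5.43 and -7.63 points in Tet2-/- 5, 7 and 8, larger than without weighting in each library. Regions with fewer than 30 dyads made up 12.6% plus 27.9% of the long genes and 4.05% plus 13.04% of the genes of 20 to 100 kb.

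The difference between the genotypes varied little with CpG density up to 99 dyads. It ran from 6.43 points at 20 to 29 dyads to 7.51 points at 70 to 99 dyads in the long genes, and was 3.70 points in the 686 regions of at least 100 dyads, where the levels were 53.1% and 49.7% against 56.2%, 55.3% and 53.8%. For comparison, genes of 20 to 100 kb ran from 5.38 points under 20 dyads to 8.04 points at 70 to 99 dyads. The place of Tet2-/- 8 moved with density. It lay below Tet2+/+ 23 in long-gene regions of fewer than 40 dyads, for example with 66.95% beside 68.5% at 20 to 29 dyads, and above it from 50 dyads on, with 74.7% beside 72.7% at 70 to 99 dyads.

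**Figure D2:**
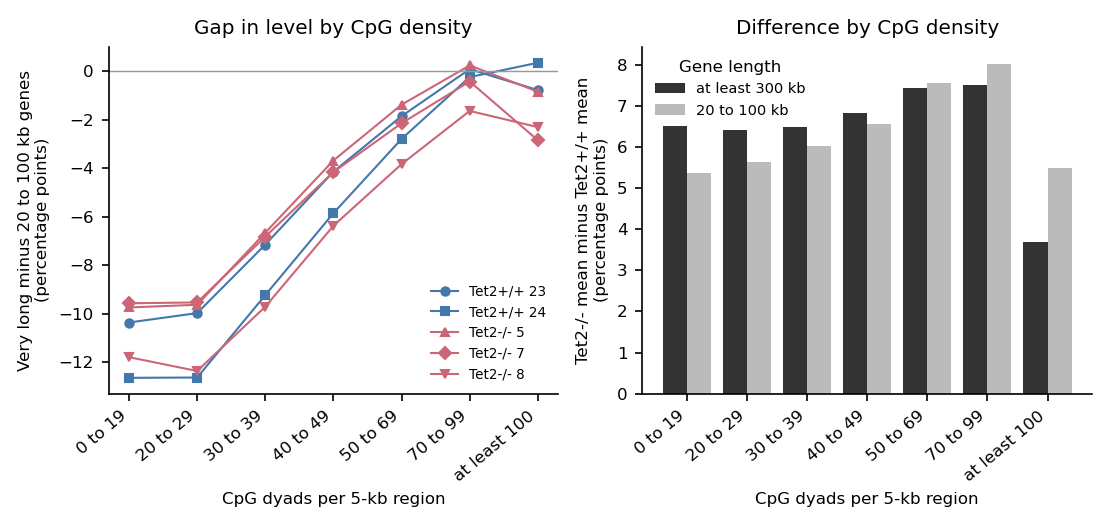
Left, level of very long genes minus level of genes of 20 to 100 kb (percentage points) by CpG dyads per 5-kb region, a line per library. Right, Tet2-/- mean (n = 3) minus Tet2+/+ mean (n = 2) in percentage points for both length classes. The gap is near -10 or lower at the lowest density and between -1.63 and 0.244 at 70 to 99 dyads, while the bars of very long genes are the higher ones under 20 dyads (6.51 and 5.38 points) and the lower ones at 100 dyads and more (3.70 and 5.48 points).

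Along the gene the level was low near the start site, nearly even farther from it and higher towards the 3′ end. A region with the gene's own start lies wholly inside only if the gene begins at a region border. Nearly all such regions were therefore left out. In the first 5 kb, taken by the annotated strand and measured in 270 regions, the level was 53.6% and 49.4% in Tet2+/+ 23 and 24 and 56.9%, 55.7% and 54.6% in Tet2-/- 5, 7 and 8. At 5 to 20 kb it had already reached 70.8% and 65.8% against 74.7%, 79.1% and 70.97%, and at 200 kb and more it was 70.9% and 65.5% against 74.8%, 79.2% and 71.05%. Towards the other end the level was higher, with 74.04% and 69.4% against 78.3%, 83.2% and 75.4% at 5 to 20 kb from the 3′ end and 70.2% and 64.5% against 73.8%, 78.2% and 70.02% at 200 kb and more. Genes of 20 to 100 kb were also higher at 5 to 20 kb from the 3′ end than at 50 to 100 kb, in every library. CpG content differed too, with 59.7 dyads per region in the first 5 kb and 37.9 at 200 kb and more. From the 3′ end it was 44.8 at 5 to 20 kb and 36.8 at 200 kb and more. Its part in the profile was not tested. The difference between the genotypes was 4.21 points in the first 5 kb and 6.81 points at 200 kb and more, a contrast of -2.60 points that was within the spread of the libraries (exact permutation p = 0.6). Tet2-/- 7, at 55.7% in the first 5 kb, lay below Tet2-/- 5 there, although it was the highest library in every other bin. Without Tet2-/- 7 the contrast was -0.465 points.

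By annotation, 231 regions that lie wholly inside a body overlapped a protein-coding start site, 10288 others an exon, and 49247 were intron. For the reason given above, these start sites were mostly those of other protein-coding genes within or overlapping the body. Start-site regions had 43.2% and 39.8% against 44.8%, 43.6% and 42.2%, exon regions 72.2% and 67.2% against 75.9%, 79.7% and 72.8% and intron regions 71.4% and 65.7% against 75.3%, 80.1% and 71.4%. Means were 41.5% ± 2.45 (SD, n = 2) and 43.5% ± 1.30 (SD, n = 3) at start sites, 69.7% ± 3.54 (SD, n = 2) and 76.1% ± 3.47 (SD, n = 3) in exon regions and 68.6% ± 4.001 (SD, n = 2) and 75.6% ± 4.37 (SD, n = 3) in introns. In the long genes, exon regions were slightly above introns in 4 libraries and below them in Tet2-/- 7. In genes of 20 to 100 kb, exon regions were above intron regions in all 5 libraries, with 75.1% and 70.999% against 78.5%, 82.8% and 77.8% beside 72.4% and 68.2% against 76.7%, 81.9% and 75.1%.

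**Figure D3:**
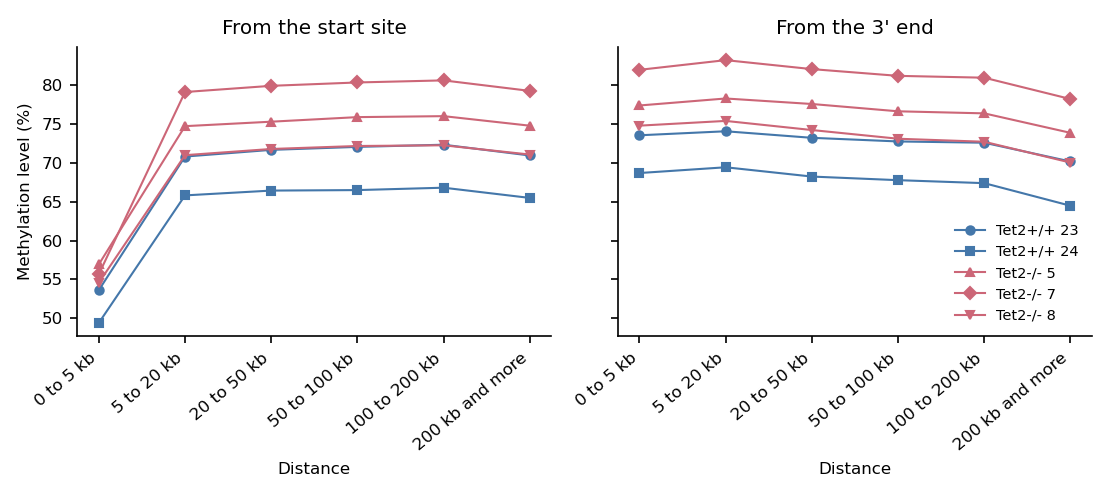
Pooled methylation level (%, y axis) of the 541 very long genes by distance from the start site (left) and from the 3′ end (right), a line per library, blue for Tet2+/+ and red for Tet2-/-. On the left all lines rise between the first 5 kb and 5 to 20 kb and are nearly flat from there, and the lines of Tet2+/+ 23 and Tet2-/- 8 run on top of each other from 5 kb onwards. On the right all lines fall from 5 to 20 kb to 200 kb and more.

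The surroundings of very long genes were almost as methylated as the genes themselves. Flanking regions lay within 100 kb on either side of a very long gene and held no protein-coding gene themselves. These 15081 regions had 69.1% and 63.3% in Tet2+/+ 23 and 24 and 73.5%, 78.3% and 69.6% in Tet2-/- 5, 7 and 8. Bodies exceeded these flanks by 2.14 and 2.41 points in Tet2+/+ 23 and 24 and 1.54, 1.22 and 1.74 points in Tet2-/- 5, 7 and 8, in 5 of 5 libraries (exact sign-flip permutation p = 0.062). The excess was smaller in each Tet2-/- library than in both Tet2+/+ libraries, by 0.774 points on average (exact permutation p = 0.1, the smallest possible). Gene by gene, 219 of the 532 bodies with at least 5 flanking regions were above their flanks in all libraries and 115 were below. Bodies with a mean level of at least 80% exceeded their flanks by a median of 8.35 points over the libraries, and bodies under 70% differed from theirs by -0.619. The body level that set these groups is part of the difference, so the grouping itself favors such a contrast. The largest excess was that of Pcca (propionyl-CoA carboxylase subunit) with 38.6 points and Fam172a with 33.02 points, and the largest deficit that of Anks1b with -11.5 points. These 3 genes were picked after their values were seen.

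Single bodies spread widely around these averages, from 47.03% to 93.8% over all genes and libraries. The order of the genes was much the same in each library, with Spearman correlations of 0.871 to 0.961 between pairs of libraries over the 541 genes. The 5 most methylated bodies were those of Nbas, Cep128, Diaph3, Dennd1a and Dock2. Nbas (chr12:13269133-13583811, + strand), which acts in Golgi-to-ER transport, had 88.9% and 87.1% in Tet2+/+ 23 and 24 and 90.2%, 93.7% and 88.5% in Tet2-/- 5, 7 and 8. Cep128, a centriolar protein, had 88.02% and 85.02% against 89.9%, 93.8% and 89.2%, and Diaph3, a formin that builds actin filaments, had 88.2% and 85.8% against 89.8%, 93.03% and 88.5%. The Rab35 activator Dennd1a had 87.8% and 85.6% against 88.5%, 93.7% and 89.3%. Dock2 (chr11:34226815-34783892, - strand), the Rac activator of leukocyte migration, had 87.8% and 85.8% against 88.9%, 93.1% and 88.6%. In all 5 bodies the lowest library was Tet2+/+ 24 and the highest Tet2-/- 7.

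The 5 least methylated bodies were those of Skint5, Fgf14, Grm7, Nxph1 and Cntn6. Skint5 (chr4:113477891-113999503, - strand), of a family expressed in thymic and skin epithelium, had 57.1% and 47.03% in Tet2+/+ 23 and 24 and 57.6%, 62.5% and 55.5% in Tet2-/- 5, 7 and 8. Fgf14, which modulates sodium channels of neurons, had 58.5% and 50.1% against 61.7%, 64.5% and 57.4%. The metabotropic glutamate receptor gene Grm7 had 58.8% and 50.2% against 62.7%, 66.8% and 58.4%. Nxph1, a ligand of neurexins, had 58.9% and 52.96% against 64.7%, 64.7% and 57.1%, and the adhesion molecule Cntn6 had 59.7% and 50.1% against 63.1%, 67.3% and 58.7%. In these 5 genes Tet2+/+ 24 was the lowest library and Tet2-/- 8 lay below Tet2+/+ 23. The median CpG content per region was 25.3 dyads for the 85 bodies under 65% and 40.7 for the 93 bodies of at least 80%.

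Lists of genes by function separated along the same axis. The median body over all 541 genes had 70.3% and 64.05% against 74.4%, 78.8% and 69.8% in Tet2+/+ and Tet2-/- libraries. Genes known to be used in blood cells (37 members) had medians of 78.5% and 76.9% against 81.8%, 86.5% and 80.8%, and 19 of 37 had a mean level of at least 80%, beside 93 of 541 in all. The 2 members under 70% were Mecom, a transcription factor of hematopoietic stem cells, with 67.4% and 60.4% against 70.3%, 72.8% and 66.1%, and a second annotated gene named Arhgap26. Genes of synaptic and neuronal cell adhesion (53 members) had medians of 65.9% and 59.3% against 68.7%, 72.6% and 63.99%, and 37 of 53 were under 70%, beside 220 of 541. Glutamate and GABA receptor genes (17) had medians of 66.2% and 58.6% against 69.98%, 73.2% and 64.1%, with 13 of 17 under 70%. Ion channel genes (28) ranged from 60.5% for Dpp10 to 86.5% for Kcnq5 in their mean over libraries, and axon guidance genes (19) from 64.3% for Dcc to 78.8% for Unc5c. Genes at common fragile sites (27) had a median mean level of 71.6%, transcription and chromatin regulators (36) 75.9% and RNA-binding factors (6) 70.3%, beside 71.4% for all members. Body minus flank had a median of 5.24 points in the blood list and 0.696 points in the adhesion list. CpG content also differed, with medians of 44.2 dyads per region in the blood list and 28.7 in the adhesion list. The transcription and chromatin regulators held more CpG than the blood list, 48.8 dyads, at a lower level. The lists are not distinct. The blood and regulator lists share members such as Mecom, Bach2 and Tcf4, and the adhesion and fragile-site lists share Cntnap2 and Lsamp. The part of CpG content in the separation of the lists was not tested.

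Between the genotypes, nearly all very long bodies had a higher mean in Tet2-/- blasts, but few passed the test across genes. The difference of group means was positive in 531 of 541 bodies, with a median of 6.49 points, quartiles of 4.91 and 7.69 points and a range from -4.67 to 14.6. The share of positive differences over all bodies is not given here. All autosomal regions pooled were also higher in Tet2-/- blasts, by 6.59 points, so the sign is not particular to very long genes. In edgeR's quasi-likelihood test, with an adjusted p under 0.05 (Benjamini-Hochberg, over 14879 gene bodies) as the call, 6 of 541 were higher and 0 lower. This is 1.11%, while 8.31% of all bodies were called higher and 0.0134% lower. Set against the median of all bodies tested, which was 5.90 points higher in Tet2-/- blasts, 333 of 541 had a larger difference, and limma called 0 once the median body of each library was taken off, as it did among all bodies (0%). An unadjusted p under 0.05 was reached by 74 very long bodies (13.7%), beside 32.6% of all bodies. Limma called 2 of 541, beside 8.26% of all bodies, and edgeR's likelihood ratio test 23, beside 13.5%. All 3 Tet2-/- libraries lay above both Tet2+/+ libraries in 211 bodies (39%), beside 61.1% of all bodies and 65.9% of those of 20 to 100 kb. All 3 lay below in 1 body (0.185%, against 0.316% of all bodies). This share turned on the order of Tet2-/- 8 and Tet2+/+ 23. Tet2-/- 8 was below Tet2+/+ 23 in 327 of 541 very long bodies (60.4%), but only in 28.1% of all bodies. Without it, the other two Tet2-/- libraries were above both Tet2+/+ libraries in 528 of 541, beside 79.1% of all bodies. Without Tet2+/+ 23 all Tet2-/- libraries were above the remaining one in 499, beside 86.8% of all bodies. The number called also rested on single libraries. It was 0 without Tet2+/+ 23, without Tet2+/+ 24 or without Tet2-/- 5, where 0.867%, 0.0134% and 2.12% of all bodies were called. It was 11 without Tet2-/- 7 and 4 without Tet2-/- 8, beside 14.4% and 4.93% of all bodies.

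The 6 bodies called higher lie on 6 chromosomes. Ttc28 (chr5:110879803-111289780, + strand) had 68.3% and 63.3% in Tet2+/+ 23 and 24 and 76.9%, 84.8% and 79.5% in Tet2-/- 5, 7 and 8. The lowest Tet2-/- library was well above the highest Tet2+/+ library, and the means differed by 14.6 points (edgeR adjusted p = 0.0344). Galnt18 (chr7:111471661-111779977, - strand), of the enzyme family that starts mucin-type O-glycosylation, had 70.9% and 61.3% in Tet2+/+ 23 and 24 and 77.3%, 84.2% and 80.4% in Tet2-/- 5, 7 and 8 (difference 14.5 points, edgeR adjusted p = 0.0268). The level of Plxdc2 (chr2:16356304-16755839, + strand), a transmembrane protein with a plexin-like domain, was 71.4% and 65.6% in Tet2+/+ 23 and 24 and 80.5%, 89.03% and 72.3% in Tet2-/- 5, 7 and 8, so that Tet2-/- 8 was barely above Tet2+/+ 23 (difference 12.1 points, edgeR adjusted p = 0.0345). Tmtc2 (chr10:105187663-105574451, - strand), an O-mannosyltransferase of the endoplasmic reticulum, had 75.4% and 67.1% against 80.4%, 88.7% and 80.6% (difference 12.01 points, edgeR adjusted p = 0.0364). The kidney urea transporter gene Slc14a2 (chr18:78146148-78596942, - strand) had 75.03% and 67.1% against 80.9%, 88.8% and 79.4% (difference 11.98 points, edgeR adjusted p = 0.0437). Ltbp1 (chr17:75005568-75392512, + strand), which binds latent TGF-beta, had 72.7% and 69.4% against 81.8%, 86.5% and 80.3% (difference 11.8 points, edgeR adjusted p = 0.049). In all 6 genes Tet2+/+ 24 was the lowest and Tet2-/- 7 the highest library. All 6 had a mean level between 70% and 80%, where the median difference over 228 bodies was 7.07 points. It was 4.28 points over the 93 bodies of at least 80%, and 6.88 points over the 85 bodies under 65%. Groups did not overlap in 10 of 85 bodies under 65%, 28 of 135 at 65% to 70%, 99 of 228 at 70% to 80% and 74 of 93 of at least 80%, beside 39% of all very long bodies and 61.1% of all bodies.

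**Figure D4:**
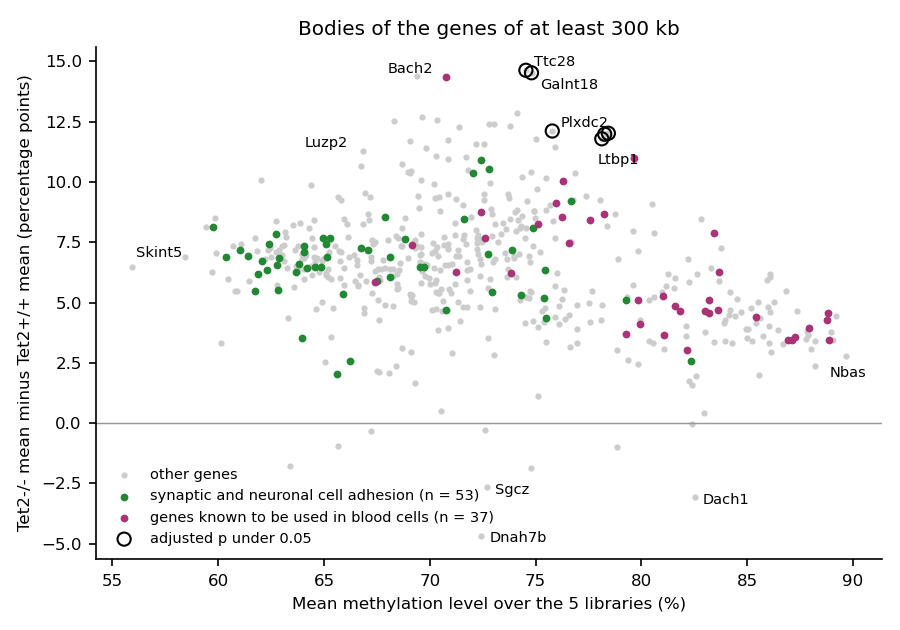
Each point is the body of 1 of the 541 very long genes, with its mean methylation level over the 5 libraries (%, x axis) and the difference of group means in percentage points (y axis). Green marks genes of synaptic and neuronal cell adhesion, purple genes used in blood cells, and black circles the 6 bodies called by edgeR. The circles lie between 70% and 80%, the purple points are concentrated above 75% and the green points below 75%.

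None of the 37 blood genes passed the test over all bodies. An unadjusted p under 0.05 in edgeR was reached by 7, beside 74 of the 541 very long bodies (13.7%) and 32.6% of all bodies. Groups of the blood genes did not overlap in 32 of 37 genes, beside 39% of the very long bodies and 61.1% of all bodies, with a median difference of 5.12 points. The largest difference was that of Bach2 (chr4:32238804-32586108, + strand), a transcriptional repressor of B and T cells, with 65.4% and 58.9% in Tet2+/+ 23 and 24 and 74.7%, 80.98% and 73.8% in Tet2-/- 5, 7 and 8 (edgeR adjusted p = 0.0512). Tcf4, an E protein of lymphoid and dendritic cells, had 78.5% and 67.6% against 82.6%, 86.9% and 82.6%, and the Rac activator Dock4 had 72.7% and 67.9% against 78.4%, 85.3% and 77.3%. Bach2 and Tcf4 passed the threshold when Tet2-/- 7 was left out, with adjusted p of 0.028 and 0.035 in edgeR. The smallest differences were those of Inpp4b, a phosphoinositide phosphatase, with 81.9% and 78.8% against 82.5%, 89.02% and 78.5%, the Rab regulator Tbc1d5 with 86.2% and 83.9% against 87.1%, 91.3% and 87.03%, and Dock2 with 3.44 points. Msi2, an RNA-binding regulator of hematopoietic stem cells, lay at 86.1% and 84.2% against 87.8%, 91.3% and 87.03%. The counts of the other lists are to be read beside the same 39% and 61.1% without overlap, and beside 1.11% of the very long and 8.31% of all bodies called higher. For an unadjusted p under 0.05 the shares were 13.7% of the very long and 32.6% of all bodies. In the adhesion list, 9 of 53 genes had groups that did not overlap, with a median difference of 6.71 points, 0 calls and 4 genes with an unadjusted p under 0.05. The receptor list (3 of 17), the channel list (8 of 28), axon guidance (3 of 19), fragile sites (8 of 27), transcription regulators (19 of 36) and RNA-binding factors (3 of 6) also had 0 calls, with unadjusted p under 0.05 in edgeR for 2, 3, 1, 3, 6 and 0 genes. Their median differences were of 7.10, 6.65, 6.42, 7.02, 5.64 and 6.55 points in this order, beside 6.49 for all very long genes and 5.90 for all bodies tested.

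Of the genes that the study lists as lower in RNA of Tet2-deficient blasts, 6 of 176 were very long, and of those listed as higher 2 of 58. The study chose these genes on RNA of the same model, and neither list is independent evidence of a direction here. Bodies of the 6 lower genes had a median difference of 4.78 points, and those of both higher genes 3.88 points, beside 6.49 for all very long genes and 5.90 for all bodies tested. The chromatin-associated Aff3 had 84.7% and 80.1% against 86.3%, 91.5% and 87.2%, and the ubiquitin ligase gene Hecw2 had 70.1% and 65.3% against 74.8%, 81.004% and 73.4%. Their groups did not overlap. Reln, a secreted guidance protein, had 72.6% and 65.2% against 74.5%, 78.3% and 68.3%, and the growth factor gene Nrg1 had 67.1% and 60.9% against 69.3%, 72.6% and 64.4%. In both of these, as in Inpp4b above, Tet2-/- 8 lay below Tet2+/+ 23. The sorting nexin gene Snx29 had 81.98% and 80.8% against 83.7%, 87.7% and 82.9%. Of the genes listed as higher, Agap1, which acts on Arf GTPases, had 73.2% and 77.9% against 80.1%, 83.9% and 75.3%, with Tet2-/- 8 below Tet2+/+ 24, and the spindle checkpoint gene Mad1l1 had 86.1% and 85.3% against 88.2%, 91.6% and 87.7%, with separated groups. No body of these 8 genes passed edgeR's test, and the unadjusted p was under 0.05 for 1 of them, Aff3, beside 32.6% of all bodies. Groups were separated in 4 of the 8, beside 61.1% of all bodies.

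In 10 bodies the Tet2-/- mean was below the Tet2+/+ mean, and none of these passed the test. The 5 lowest differences are named by size alone. Dnah7b (chr1:46066315-46373546, + strand), a dynein heavy chain of cilia, had 75.2% and 75.3% in Tet2+/+ 23 and 24 and 70.99%, 74.8% and 65.9% in Tet2-/- 5, 7 and 8 (difference -4.67 points, edgeR adjusted p = 0.409). It was the one very long body in which all Tet2-/- libraries lay below both Tet2+/+ libraries. Dach1, a transcriptional cofactor of development, had 84.8% and 83.97% against 80.6%, 92.9% and 70.4%. The sarcoglycan gene Sgcz had 71.4% and 77.1% against 74.1%, 75.96% and 64.8%, Dip2c had 73.1% and 78.7% against 73.5%, 80.01% and 68.7%, and the kainate receptor gene Grik2 had 63.4% and 65.5% against 63.6%, 66.9% and 57.6%. In Dach1, Sgcz, Dip2c and Grik2 the groups overlapped, and leaving out Tet2-/- 8 turned each of these 4 differences positive. Without Tet2-/- 7, in contrast, Dach1 passed the test as lower (difference -8.88 points, edgeR adjusted p = 0.0129).

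Most of these genes were unusual in 1 library. After the median of each library over the 541 genes was taken off, 7 bodies held a library that departed by at least 10 points from the median of the 5. Tet2+/+ 24 departed upwards in Dnah7b (by 14.6 points), Dip2c (13.5), Sgcz (13.4), Grik2 (12.3) and Cpq (10.1). Dnah7b was not unusual in Tet2+/+ 24 alone. There Tet2+/+ 23 also lay above all Tet2-/- libraries on this scale, and the Tet2-/- libraries lay close together. For counts of regions, the median of each library over the regions of very long genes was taken off instead. In Sgcz, 169 of 213 regions had Tet2+/+ 24 as the highest library after this subtraction, and 83 before it. Tet2-/- 8 departed downwards in Dach1 and was the lowest library in 48 of 71 regions of that gene after the subtraction and in 56 before it. Tet2-/- 7 departed upwards in Luzp2 (chr7:54835498-55268885, + strand), where the levels were 62.3% and 57.8% in Tet2+/+ 23 and 24 and 65.4%, 85.2% and 63.5% in Tet2-/- 5, 7 and 8 and Tet2-/- 7 was the highest library in 59 of 74 regions after the subtraction and in 71 before it. The coverage of these 7 bodies, relative to each library's depth, stayed within 0.316 (log2) of the median library.

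A C-to-T difference in sequence between mice at a CpG is read as an unmethylated call. Dyads with at least 3 calls in each Tet2-/- library and 2 in each Tet2+/+ library were searched for those without any methylated call in Tet2-/- blasts and with at least 50% methylated calls in Tet2+/+ blasts. None were found in 434 of the 541 genes. The 5 highest shares were those of Stpg2 (21 of 663 dyads), Dnah7b (3 of 428), Dip2c (6 of 922), Grik2 (4 of 655) and Sgcz (3 of 1155). These dyads are by their definition low in Tet2-/- blasts, so that a high share lowers the Tet2-/- mean. Over all CpGs of the body, leaving them out moved the difference from -0.73 to 0.373 points in Stpg2. It moved from -4.25 to -4.08 points in Dnah7b, from -2.02 to -1.88 in Grik2, from -1.71 to -1.64 in Sgcz and from -1.20 to -0.981 in Dip2c, so that these 4 stayed negative. Dyads with fewer calls than the search required could not be found by it and remained in all of these values. Stpg2 (chr3:139205694-139710299, + strand), Unc5c (chr3:141465216-141834924, + strand) and Bmpr1b (chr3:141837136-142169425, - strand) lie on the same chromosome as Tet2, within 10 Mb of it. Unc5c, a netrin receptor, had no such dyad and levels of 80.4% and 78.4% against 80.6%, 83.2% and 71.5%, and Bmpr1b had 71.8% and 63.7% against 73.2%, 77.4% and 68.8%. The part of sequence differences in the low values of these genes was not tested.

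**Figure D5:**
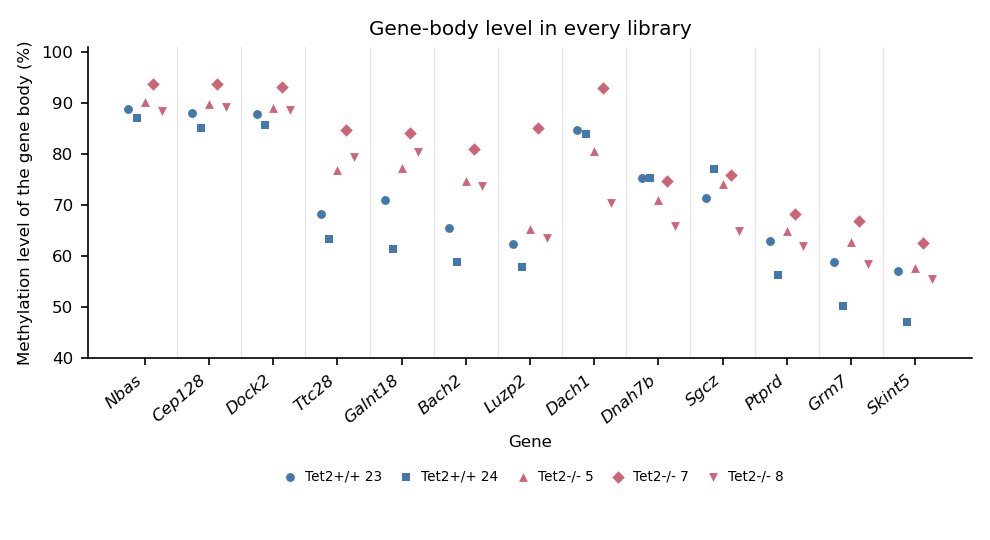
Methylation level of 13 gene bodies (%, y axis from 40) in every library, with blue circles and squares for Tet2+/+ 23 and 24 and red triangles, diamonds and inverted triangles for Tet2-/- 5, 7 and 8. Ttc28, Galnt18 and Bach2 show separated groups, Luzp2 shows Tet2-/- 7 alone at 85.2%, and Dach1 and Sgcz show Tet2-/- 8 at the bottom.

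A smaller share of 5-kb regions was called in very long genes than over all autosomal regions. Of 1304 regions called higher and 11 called lower among 59766 (edgeR's quasi-likelihood test, adjusted over all 461199 autosomal regions), the shares were 2.18% and 0.0184%, against 3.45% and 0.023% of all regions. All Tet2-/- libraries lay above both Tet2+/+ libraries in 33.4% of the regions of very long genes and in 37.4% of all regions, and below them in 1.07% and 1.24%. The number called was 15 without Tet2+/+ 24, 441 without Tet2+/+ 23, 469 without Tet2-/- 5 and 1988 without Tet2-/- 8, of 311, 5207, 6489 and 20185 called among all regions. Without Tet2-/- 7 the number was 1129, of 13900 called among all regions. Limma called 198 of 2403. Once the median region of each library was taken off it called 22, with 11 in each direction, of 209 called among all regions. By annotation, 15 of 231 start-site regions (6.49%), 325 of 10288 exon regions (3.16%) and 964 of 49247 introns (1.96%) were called higher. The called regions gained 21.2 points in the median and held 55.5 dyads, beside 33 for all regions of very long genes. Calls per region grow with its dyads, and the part of depth in these shares was not tested.

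Regions called higher were found in 290 of 541 genes. This number grows with the regions a gene holds, which ran from 46 to 869 with a median of 87. No such count over all gene bodies is given here. Per region, 2.18% were called higher in very long genes, beside 3.45% of all regions. Ttc28 had 32 of 81 regions called higher, Cdh23 (a cadherin of hair cells) 24 of 78, Bach2 20 of 69 and Hivep3, a zinc finger regulator, 23 of 80. Gm20388, the longest annotated body, had 131 of 869. In Galnt18, although its body was called, 6 of 60 single regions passed and 50 had groups that did not overlap. Groups did not overlap in 33.4% of the regions of very long genes and 37.4% of all regions. The strongest region of Ttc28 (chr5:111270001-111275000) had 44.04% and 34.4% in Tet2+/+ 23 and 24 and 68.7%, 78.8% and 72.8% in Tet2-/- 5, 7 and 8 (edgeR adjusted p = 1.90e-05).

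The largest gains were local. A region in an intron of the kinase gene Mast4 (chr13:102830001-102835000, 75 dyads) had 34.4% and 9.76% in Tet2+/+ 23 and 24 and 84.9%, 93.7% and 88.6% in Tet2-/- 5, 7 and 8 on 32 to 63 calls (edgeR adjusted p = 2.0e-09), while the whole Mast4 body had 73.5% and 68.8% against 79.8%, 84.04% and 75.2%. Of its bases, 87.3% are repeat-masked. An intron of Msra (chr14:64255001-64260000), which encodes a methionine sulfoxide reductase, had 33.3% and 25.6% in Tet2+/+ 23 and 24 and 81.3%, 92.5% and 87.6% in Tet2-/- 5, 7 and 8 (edgeR adjusted p = 3.23e-12). In Lrba (chr3:86545001-86550000), a gene needed for the recycling of CTLA4, the region with the nested start site of Mab21l2 had 32.3% and 6.3% in Tet2+/+ 23 and 24 and 36.9%, 94.4% and 87.6% in Tet2-/- 5, 7 and 8 (edgeR adjusted p = 1.53e-24). Here Tet2-/- 5 lay near Tet2+/+ 23 and the other two Tet2-/- libraries near complete methylation. The Msra and Lrba windows printed above are the CpG-richest 300 bases of their regions.

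Losses called in very long genes numbered 11, in 9 genes. The largest, in Dip2c (chr13:9490001-9495000), overlaps an exon and had 70.3% and 84.6% in Tet2+/+ 23 and 24 and 33.7%, 39.3% and 38.7% in Tet2-/- 5, 7 and 8 (edgeR adjusted p = 1.27e-04). Groups that do not overlap were a condition for the regions named by gain or loss. In the printed window of Dip2c, 5.93%, 6.40% and 3.12% of the calls were methylated in Tet2-/- 5, 7 and 8. A repeat-rich intron of Stpg2 (chr3:139560001-139565000, 88.9% repeat-masked) had 80.6% and 77.4% in Tet2+/+ 23 and 24 and 43.4%, 25% and 57.1% in Tet2-/- 5, 7 and 8 (edgeR adjusted p = 9.24e-04). An intron of Grik2 (chr10:49135001-49140000) had 82.5% and 90.6% in Tet2+/+ 23 and 24 and 67%, 56.9% and 52.4% in Tet2-/- 5, 7 and 8 (edgeR adjusted p = 0.0104). All 3 regions lost the call without Tet2+/+ 24, and that of Stpg2 also without Tet2+/+ 23, whereas those of Mast4, Msra and Lrba kept it when any 1 library was left out. In limma, once the median region of each library was taken off, the regions of Lrba (adjusted p = 0.151) and Stpg2 (adjusted p = 0.0775) also lost it.

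Many bodies were not uniform. Stretches of 100 kb within a gene differed by a median of 6.91 points between the highest and the lowest, and by at least 20 points in 17 of 540 genes. In Runx2, a transcription factor of bone formation, the lowest stretch had 54.6% and 51.6% against 54.5%, 56.5% and 53.96% and the highest 85.1% and 85.4% against 88.1%, 93.8% and 88.3%. In the cohesin subunit gene Stag1 they had 57.7% and 54.9% against 61.1%, 57.8% and 59.02% and 88.7% and 86.4% against 90.4%, 92.6% and 89.7%. In Celf2, an RNA-binding protein, they had 62.5% and 57.8% against 63.2%, 71.5% and 66.9% and 88.1% and 85.2% against 90.2%, 94.8% and 92.5%, and in the neuronal adhesion gene Cntnap2 59.4% and 47.7% against 64.5%, 63.8% and 56% and 86.9% and 81.2% against 85.6%, 89.05% and 83.6%. In Runx2 the groups overlapped in the low stretch and not in the high one. The range was largest in Fgfr2, with 37.6% and 36.1% against 43.2%, 41.7% and 46.3% and 86.3% and 83.2% against 88.4%, 89.1% and 87.7%. These genes were named after their ranges were seen.

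The annotated length itself bears on these values. Fgfr2 spans 2961 kb in GENCODE but 104 kb in RefSeq on the same assembly, and 29 other protein-coding genes lie within its GENCODE span. In all, 19 of 529 genes matched by identifier or symbol were shorter than 300 kb in RefSeq, and the difference of the pooled level was 6.82 points without them. The 5 longest bodies were Gm20388, a model with 71 other protein-coding genes inside it, with 63.5% and 58.8% against 68.3%, 72.4% and 67.5%, Fgfr2 with 68.9% and 64.6% against 72.2%, 75.1% and 70.3%, the receptor phosphatase gene Ptprd with 62.8% and 56.2% against 64.9%, 68.3% and 61.9%, Cntnap2 with 66.2% and 59.3% against 70.5%, 74.8% and 64.5%, and the adhesion gene Lsamp with 64.4% and 55.3% against 65.9%, 70.8% and 62.7%. A nested protein-coding gene lay in 59 bodies, and 17 bodies shared regions with another very long gene. Just above the length limit were the potassium channel gene Kcnq3 with 67.3% and 59.8% against 74.6%, 78.3% and 68.01%, the peptide-amidating enzyme gene Pam with 84.3% and 81.7% against 86.2%, 89.8% and 86.1%, and Nxph1, given above. Just below it were Atp2b2 with 61.9% and 52.9% against 68.7%, 74.4% and 65.8%, Akap13 with 71.6% and 68.7% against 72.2%, 79.1% and 73.6% and Jazf1 with 73.7% and 75.2% against 79.8%, 84.8% and 78.1%.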

How the data were processed

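The deposited values were, for each CpG cytosine, counts of methylated and of unmethylated calls, with 1 file per mouse. To make them, the authors trimmed reads with Trim Galore 0.4.3, aligned them to GRCm38 with Bismark 0.19.1, removed duplicates and did not pool mice. Libraries were not scaled. Counts of both strands were summed per CpG dyad and per 5-kb region. Genes came from GENCODE M21, sequences and RefSeq spans from the RefSeq annotation of GRCm38. Called bodies and regions come from edgeR 4.0.16 (quasi-likelihood, methylated and unmethylated counts per library), with limma 3.58.1 on log2((methylated + 2)/(unmethylated + 2)) as an alternative. On simulated gene bodies (14879) with 200 changed by 15 points, edgeR recovered 128 with 8 false calls. The simulation had no offsets between libraries and no shift shared by all bodies, and it lowered highly methylated bodies. The real libraries differ in level throughout, so these rates need not hold for them. A body region counted only if it lay wholly inside its gene. Flanks were regions without a protein-coding gene. The genes and lists were chosen with earlier results of these data known. Genes were named by length, highest and lowest level, and largest and smallest difference (5 each, 3 each in the blood list, 3 regions each way, 3 genes on each side of 300 kb). The 3 regions each way were picked among called regions whose groups did not overlap. All other genes were named after their values were seen.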

Additional observations from a re-analysis of the deposited data

How the results depend on the processing

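No paired analysis was possible because the mice of both genotypes share no replicate number. The difference between the genotypes in very long bodies had the same direction under all alternatives, from 4.05 to 9.55 points when 1 library was left out. The gap to genes of 20 to 100 kb also kept its sign. It was -6.82 points as a mean over regions, -2.09 without exon regions, -6.16 with the same CpG density weights for both length classes and -4.99 for genes of at least 500 kb, and -3.60 to -2.91 without 1 library. Its change with genotype, which was near 0, reversed to 0.274 points with these density weights and to 0.077 for genes of at least 200 kb, and ran from -0.723 to 0.863 without 1 library.

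The number of bodies called was 23 with the likelihood ratio test, 15 with all CpGs of a body, 2 with limma, 0 with limma after median subtraction and 0 to 11 without 1 library. Regions called numbered 198 with limma, 22 after median subtraction and 15 to 1988 without 1 library. Bodies with separated groups numbered 211 to 528 without 1 library. Single bodies reversed without Tet2+/+ 24 (Sgcz 0.19 points, Dip2c 0.970) or without Tet2-/- 8 (Dach1 2.39, Sgcz 0.732, Dip2c 0.825, Grik2 0.775). Without any other 1 library their lowest values were -8.88 (Dach1), -5.52 (Sgcz), -4.83 (Dip2c) and -3.85 (Grik2). The causes were not tested. With 1 Tet2+/+ library left, that library is assumed to vary like the others. The alternatives of the gap, those of the count of bodies with separated groups, the alternatives with RefSeq lengths and the flanks without 1 library were added after seeing the data.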
